A study of Homo sapiens with 21 samples.

Results

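BT-549 is an established triple-negative breast cancer (TNBC) cell line that grows as a flat, mesenchymal-looking layer. When its cells were moved from adherent 2D culture to serially passaged floating spheres (mammospheres), 62 genes went from almost no reads to a clear signal in every sphere library and 16 genes went the opposite way. These 78 genes, of 42339 in the count table, are described here. A gene was taken as switched on where every one of the 18 mammosphere libraries held at least 30 raw counts and every one of the 3 libraries of 2D cells held at most 5, and as switched off where the same limits held in reverse. The genes were chosen by these raw counts, so the contrast between 2D cells and mammospheres is a description here and carries no test. Of 5 genes that were set aside, FKBP5, F3 and AKR1C2 met the limits for switched-on genes and GLUL and AKR1C1 did not. Empty cells of the table, which 13 of the 16 switched-off genes and none of the 62 switched-on genes had, were read as 0.

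Mammosphere culture keeps cells floating in serum-free medium, where only cells that tolerate loss of anchorage grow on, and is a common way to enrich breast cancer stem-like cells. A gene can be silent in one state of a cell and active in another, depending on the transcription factors and the chromatin at its promoter, and some genes come on or go off with their neighbours on the chromosome. MUC1-C is the transmembrane subunit of mucin 1, which signals to the nucleus through a cytoplasmic CQC motif, and MYC is a transcription factor that drives growth and metabolism.

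All libraries came from BT-549 cells, 3 cultures for each of 7 groups. The 2D cells grew in RPMI1640 with serum and insulin. The mammospheres grew in MammoCult medium on ultra-low attachment plates, and comprised untreated passage 6 spheres (3D cells), passage 6 spheres treated with 0.75 μM GO-203 (a peptide that blocks the CQC motif), passage 6 spheres of the tet-MUC1shRNA line given 0.1% DMSO (vehicle) or 500 ng/ml doxycycline (DOX), and passage 8 spheres of the tet-MYCshRNA line given vehicle or DOX. Each tet line carries 1 DOX-inducible hairpin, was selected in puromycin and has no 2D counterpart among these libraries. No DOX-treated line without a targeting hairpin is among them. DOX, the absence of DMSO and silencing therefore differ together and cannot be told apart. Below, MUC1 silencing and MYC silencing name the DOX against vehicle contrasts of these lines. Growth form, medium, serum and passage all changed together between 2D cells and mammospheres and cannot be told apart, nor can loss of a transcript per cell and loss of the cells that carried it.

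The bases just upstream of 5 of these genes are shown because their loci recur below, in the epiregulin and amphiregulin pair, the prostaglandin gene PTGS2, the most abundant switched-off gene and a receptor whose antisense neighbour was lost with it. Sequences are from RefSeq on GRCh38.p14, 250 bases ending before the transcription start, and run 5′ to 3′ on the gene's own strand. Capitals mark matches on either strand to 6 searched motifs: the TATA box core TATAAA, the CCAAT box CCAAT, the E-box CACGTG, the hypoxia-response core ACGTG (which also lies inside CACGTG), the AP-1 site TGANTCA and the glucocorticoid receptor palindrome (AGAACA and TGTTCT with any 3 bases between them).
EREG, chr4:74364895-74365144, plus strand: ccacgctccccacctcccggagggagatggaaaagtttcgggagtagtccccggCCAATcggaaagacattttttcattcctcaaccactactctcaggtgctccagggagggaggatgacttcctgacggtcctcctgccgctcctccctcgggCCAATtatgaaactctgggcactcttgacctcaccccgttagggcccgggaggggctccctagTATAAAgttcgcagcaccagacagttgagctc
AREG, chr4:74444886-74445135, plus strand: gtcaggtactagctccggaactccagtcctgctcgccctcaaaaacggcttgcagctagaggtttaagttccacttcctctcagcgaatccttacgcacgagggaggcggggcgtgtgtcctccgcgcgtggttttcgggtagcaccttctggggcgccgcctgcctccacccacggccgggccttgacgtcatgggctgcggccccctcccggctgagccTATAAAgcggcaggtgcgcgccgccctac
PTGS2, chr1:186680424-186680673, minus strand: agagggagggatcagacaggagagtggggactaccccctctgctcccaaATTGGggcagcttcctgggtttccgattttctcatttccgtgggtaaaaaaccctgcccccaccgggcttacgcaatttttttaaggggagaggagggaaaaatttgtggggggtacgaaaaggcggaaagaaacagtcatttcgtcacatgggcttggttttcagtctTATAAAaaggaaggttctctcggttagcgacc
OR2T8, chr1:247920002-247920251, plus strand: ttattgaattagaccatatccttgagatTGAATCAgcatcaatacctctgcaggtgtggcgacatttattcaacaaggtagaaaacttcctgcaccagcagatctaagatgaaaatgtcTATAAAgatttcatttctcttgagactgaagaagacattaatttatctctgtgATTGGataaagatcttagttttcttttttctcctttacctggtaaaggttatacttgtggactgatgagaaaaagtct
F2RL2, chr5:76623404-76623653, minus strand: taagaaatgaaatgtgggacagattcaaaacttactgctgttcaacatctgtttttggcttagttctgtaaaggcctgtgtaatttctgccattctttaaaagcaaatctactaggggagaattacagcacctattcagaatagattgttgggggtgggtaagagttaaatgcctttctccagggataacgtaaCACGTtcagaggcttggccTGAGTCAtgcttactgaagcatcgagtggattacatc

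EREG, AREG and PTGS2, which came on in spheres, each carry a TATAAA close to the start site. OR2T8 and F2RL2, which went off, each carry a TGANTCA, and OR2T8 carries a TATAAA as well. RefSeq promoters of 300 bases (250 before and 50 after the start) were matched for 34 of the 62 switched-on genes and 10 of the 16 switched-off genes. Among them, TATAAA was found in 6 switched-on promoters, 17.6% against 12% of all 27305 promoters, those of AREG, CD163L1, EREG, LBH, PTGS2 and SULT1B1. TATAAA was also in 2 of the 10 switched-off promoters, those of OR2T8 and TMPRSS15, so it did not set the switched-on genes apart. TGANTCA was found in 1 switched-on promoter (2.94%) and in 4 of the 10 switched-off promoters, those of CCDC160, F2RL2, OR2T8 and TMPRSS15, against 7.76% of all promoters. CACGTG was in 8.82% and ACGTG in 23.5% of the switched-on promoters, against 7.43% and 21.6% of all, and in 0 and 2 of the switched-off ones. CCAAT was in 23.5% of the switched-on promoters and in 4 of the 10 switched-off ones, against 35.7% of all. The glucocorticoid receptor palindrome was in none of the matched promoters and in 0.00366% of all. The matched switched-off promoters held a median of 5.0 CpG dinucleotides in their 300 bases and 46.0% GC, the switched-on ones 11.5 and 57.0%, and all promoters 14.0 and 58.3%. These matches are letters in a window and say nothing of what binds there, and the genes without a matched promoter were not searched.

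The libraries held 38026597 to 99751717 counted reads. Within each group, log-scale profiles of replicate libraries correlated at 0.993 or higher. MUC1 stood at 101, 83.1 and 86.6 CPM (counts per 1000000 counted reads, after TMM scaling of the library sizes) in the vehicle and 19.7, 21.2 and 23.3 CPM in the DOX libraries of the tet-MUC1shRNA line. MYC stood at 439, 418 and 386 CPM in the vehicle and 244, 279 and 297 CPM in the DOX libraries of the tet-MYCshRNA line, so in each line the targeted transcript was lower in all 3 DOX libraries. MUC1 itself was higher with DOX in the tet-MYCshRNA line, at 66.5, 67.1 and 73.4 against 139, 194 and 167 CPM. Of 5 mesenchymal markers, VIM, FN1 and CD44 were abundant in all groups, with group means of at least 450.9 CPM. FN1 averaged 450.9 CPM in 2D cells and 5175 to 12470 CPM in the sphere groups. CDH2 averaged 441 CPM in 2D cells and 11.9 to 74.1 CPM in the sphere groups, and SPARC 4463 and 199 to 451 CPM. Of 7 epithelial markers, EPCAM and KRT19 stayed under 0.05 CPM. CDH1 averaged 1.42 and GRHL2 0.819 CPM in 2D cells and both at most 0.310 CPM in spheres, while KRT8, KRT18 and ESRP1 had their highest group means in DOX-treated tet-MUC1shRNA spheres, at 1.34, 0.886 and 0.634 CPM. Of the leukocyte markers reported here, PTPRC averaged 1.25 CPM in 2D cells and CD14 up to 0.441 CPM in spheres, and CD3E and LYZ stayed near 0.

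Most of the switched-on genes were protein-coding. The 62 comprised 48 protein-coding genes (77.4%), 11 lncRNAs (17.7%), the processed pseudogene GLULP4, the unprocessed pseudogene ADAMTS7P4 and ENSG00000279415, an unclassified transcript. Among all other genes with at least 30 counts in every library of either culture form, 81.9% were protein-coding and 9.48% were lncRNAs. The 16 switched-off genes comprised 11 protein-coding genes (68.8%), 4 lncRNAs (25.0%) and the olfactory receptor pseudogene OR2T32P. The switched-on genes were spread over 18 chromosomes, with 8 on chromosome 17, and the switched-off genes over 9, with 4 on chromosome 1 and 3 each on chromosome 3 and the X chromosome.

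In 2D cells the 62 switched-on genes together gave 65 to 73 counts per library, and 14 of them gave none in any 2D library. Those 14 were DDC, DYNLT3, EREG, FGF14, FOXC2, NOS2, NPTX2, SAA1, STEAP2, TNFRSF10A-DT, ENSG00000248647, ENSG00000253406, ENSG00000284377 and ENSG00000287458. For a gene at 0 in 2D cells only a lower bound of its rise can be given, computed against a floor of 3 counts per library. NOS2 was at least 438-fold higher in 3D cells than in 2D cells, STEAP2 at least 348-fold, EREG at least 262-fold and FOXC2 at least 116-fold. Low counts in these files were often even numbers, with 68.5% to 72.8% of values from 1 to 10 even in each library against 49.5% to 51.5% of values over 1000, so 5 counts may stand for fewer than 5 sequenced fragments. The 3D against 2D comparison over all genes called 6.9% of 19190 genes higher and 9.29% lower at the thresholds used below.

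**Figure D1:**
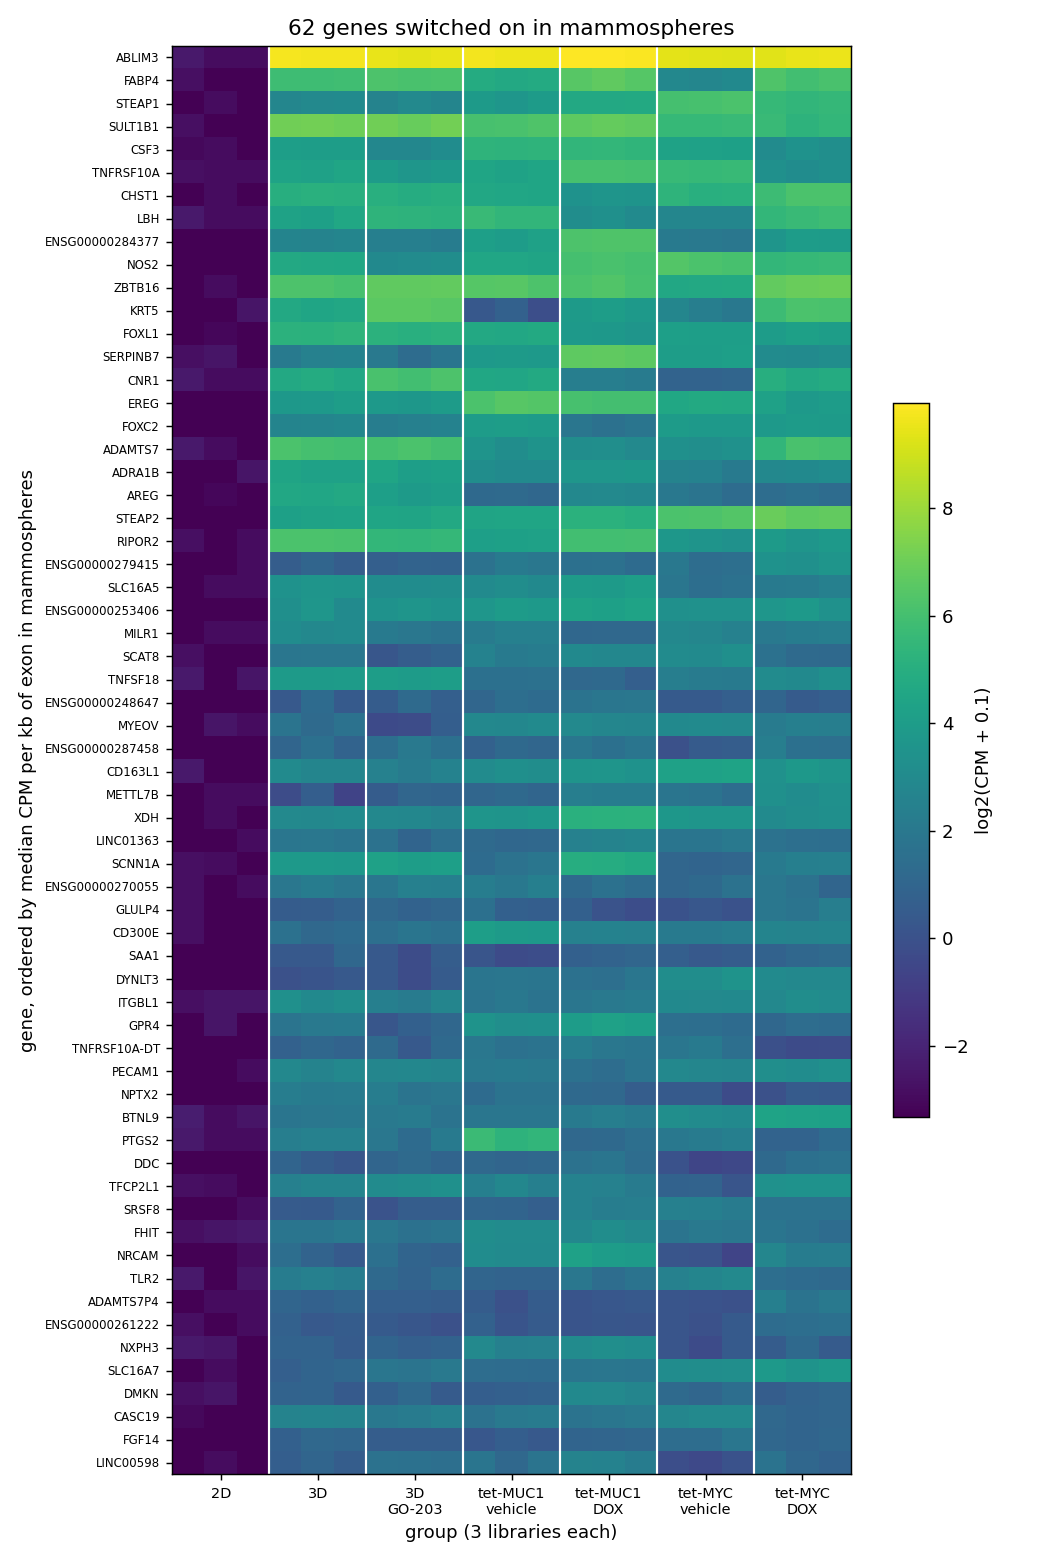
Expression of the 62 switched-on genes (rows, ordered by median CPM per kb of exon) in the 21 libraries (columns, 3 per group, white lines between groups), as log2(CPM + 0.1). The 3 leftmost columns, the 2D cells, are dark for every gene by the way the genes were chosen, while the 18 sphere libraries differ in level from group to group, most of all for KRT5.

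The presence of these transcripts in all spheres did not make them steady. Across the 18 mammosphere libraries the highest CPM was a median of 6.59 times the lowest, from 1.55 times for ABLIM3 to 118 times for KRT5. The other 12299 genes with at least 30 counts in all 18 libraries had a median ratio of 2.39, and 6.97% of them lay above 6.59. Group means differed over 10-fold for 12 switched-on genes and under 3-fold for 12. The DOX-treated tet-MUC1shRNA spheres had the highest group mean for 20 genes and the vehicle-treated tet-MYCshRNA spheres the lowest for 21. These counts were not made over other genes. The raw-count limit also let a gene enter at fewer CPM in deeper libraries. The vehicle-treated tet-MYCshRNA libraries held 60288513 to 99751717 counts, and those with GO-203 38026597 to 60811393.

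ABLIM3, an actin-binding LIM protein of the cytoskeleton, was by far the most abundant and the steadiest. It stood at 0.0887, 0.0348 and 0.0342 CPM in the 2D libraries. In spheres it stood at 878, 851 and 836 CPM in 3D cells, 723, 685 and 733 CPM with GO-203, 828, 785 and 778 CPM in vehicle and 962, 989 and 923 CPM in DOX tet-MUC1shRNA cells, and 689, 653 and 640 CPM in vehicle and 644, 740 and 765 CPM in DOX tet-MYCshRNA cells. Its raw counts were 2 to 4 in 2D cells and 27008 to 71005 in spheres. No pair of sphere groups moved it past the thresholds below. Its log2 change was 0.29 on MUC1 silencing, 0.10 on MYC silencing and -0.23 with GO-203. Per kb of exon, its median level in spheres was 107 CPM, against 43.9 CPM for FABP4, the next in order, and 13.2 CPM for STEAP1.

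Among the sphere groups, a gene is called changed here at an adjusted p under 0.1 and an absolute log2 fold change over 1.5, by edgeR's quasi-likelihood test with Benjamini-Hochberg adjustment over all genes tested. Errors of log2 fold changes are standard errors, each group has 3 libraries, and p-values measure the spread between cultures of 1 line. All 62 switched-on genes passed the filter on low counts in every comparison, as the 30-count limit made certain. That limit also left no gene room to fall to nothing in any sphere group. The 16 switched-off genes, with at most 5 counts in spheres, were not tested among sphere groups.

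MUC1 silencing raised 13 of the 62 switched-on genes and lowered 4, against 5.74% of all genes raised and 3.08% lowered. The genes that rose included the keratin KRT5, the epithelial sodium channel subunit SCNN1A, the protease inhibitor SERPINB7, the epidermal secreted protein DMKN, the EGF-receptor ligand AREG and the death receptor TNFRSF10A. The genes that fell were PTGS2, LBH, CNR1 and FOXC2. The median log2 fold change was 0.53 over the 62 genes and 0.02 over all 19220 genes tested, and scaling by library size alone moved the median of all genes by a further 0.17. By adjusted p alone, 36 of the 62 were higher and 17 lower, against 30.7% and 31.6% of all genes.

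KRT5 is a keratin of basal epithelial cells. It had 0, 0 and 0.0684 CPM in 2D cells and 25.8, 22.1 and 24.9 CPM in 3D cells, and 97.8, 97.3 and 90.4 CPM with GO-203. The vehicle-treated tet-MUC1shRNA spheres were its lowest group, at 1.18, 1.62 and 0.826 CPM, and DOX brought it to 14.8, 16.4 and 14.5 CPM. The tet-MYCshRNA line had 6.61, 5.00 and 3.85 CPM with vehicle and 54.6, 73.0 and 70.4 CPM with DOX. In both lines and with GO-203 the treated libraries all lay above their controls, yet the DOX-treated tet-MUC1shRNA spheres did not reach the untreated 3D cells. The log2 fold change was 3.70 ± 0.15 on MUC1 silencing (adjusted p = 2.9e-14), 3.65 ± 0.19 on MYC silencing (adjusted p = 1.5e-07) and 2.00 ± 0.07 with GO-203 (adjusted p = 9.9e-15). Of 13 other keratins and barrier genes in a list, MUCL1, a small mucin, averaged 0.289 CPM in vehicle and 70.8 CPM in DOX tet-MUC1shRNA spheres, and the others that were measured averaged at most 10.4 CPM in any group. With vehicle they were near 0 in that line and could be tested only through the DOX libraries, so no count of calls is read from them.

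PTGS2 encodes the inducible cyclooxygenase that makes prostaglandin H2. It stood at 5.11, 5.70 and 5.55 CPM in 3D cells, 3.68, 2.38 and 4.14 CPM with GO-203, 53.0, 38.1 and 42.1 CPM in vehicle-treated and 2.16, 2.24 and 2.81 CPM in DOX-treated tet-MUC1shRNA spheres. In the tet-MYCshRNA line it stood at 3.94, 4.41 and 5.14 CPM with vehicle and 1.79, 1.79 and 2.37 CPM with DOX. Only the vehicle-treated tet-MUC1shRNA spheres held over 6 CPM, so its fall on MUC1 silencing, by 4.20 ± 0.12 on the log2 scale (adjusted p = 1.2e-16), started from the highest group of all. Its log2 change was -1.19 on MYC silencing and -0.64 with GO-203, neither past the fold threshold.

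**Figure D2:**
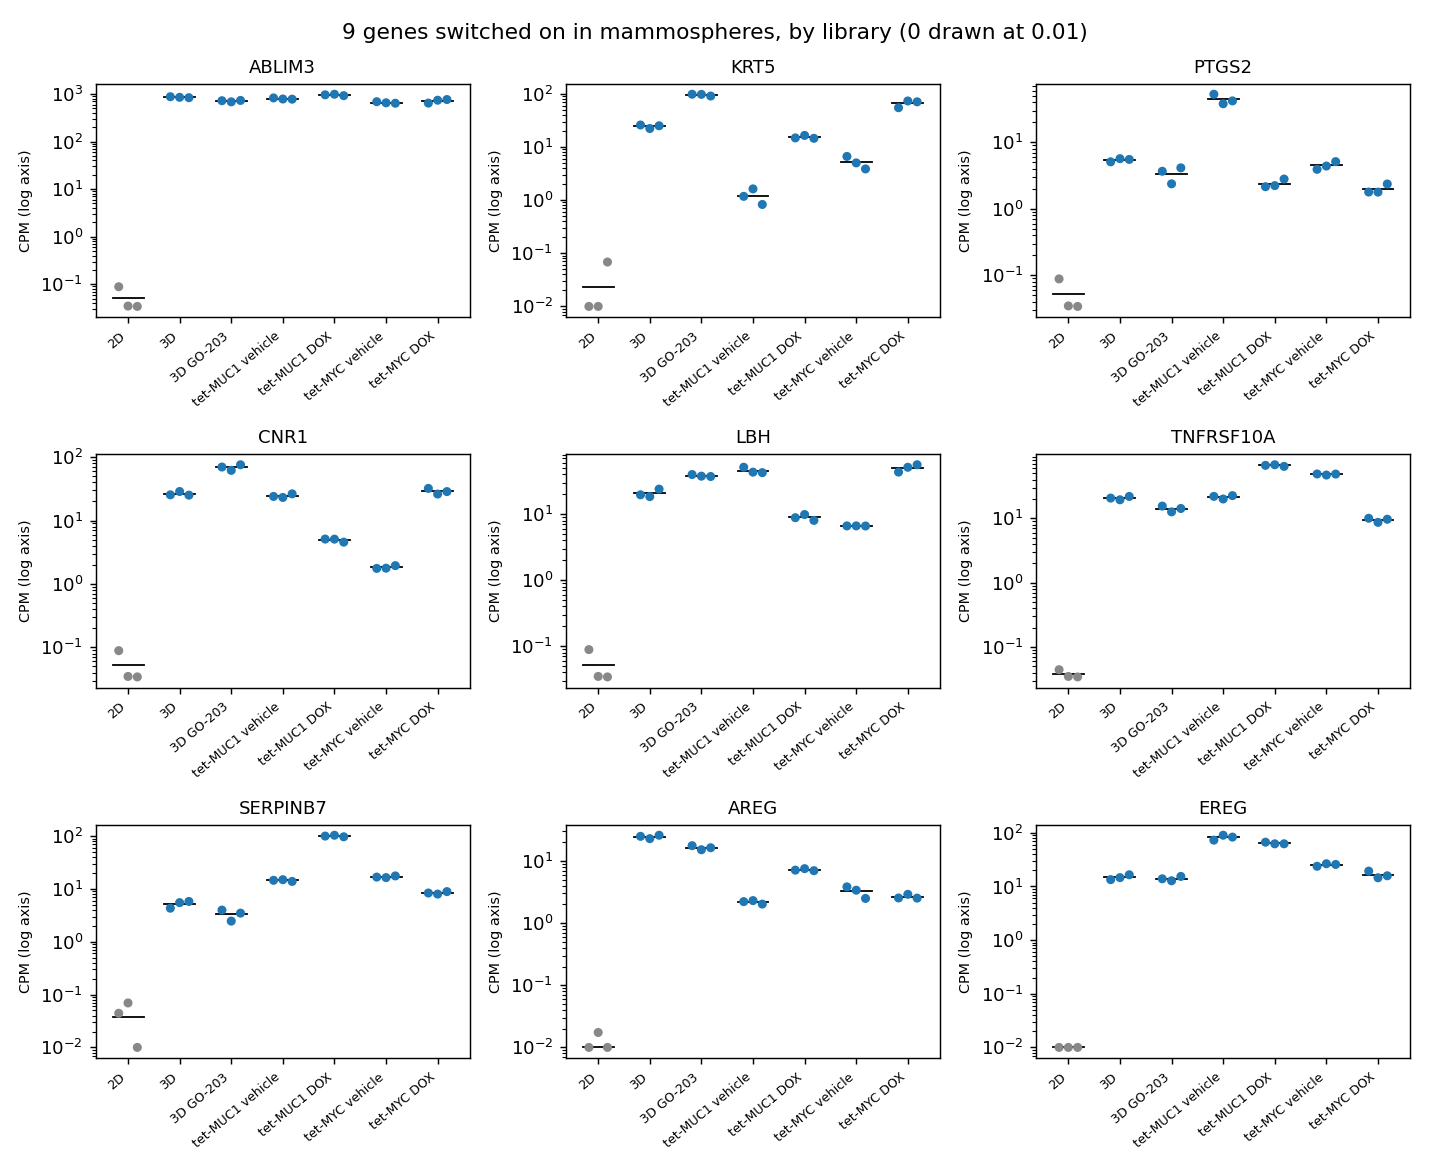
CPM on a log axis for 9 switched-on genes in each of the 21 libraries (grey points, 2D cells; blue points, spheres; black lines, group means; values under 0.01, including 0, drawn at 0.01). ABLIM3 sits level across sphere groups, whereas KRT5 spans 0.826 to 97.8 CPM and PTGS2 is high in 1 group alone.

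SERPINB7, a serpin of the epidermis, stood at 14.6, 14.96 and 13.9 CPM in vehicle and 100.1, 104 and 97.1 CPM in DOX tet-MUC1shRNA spheres. It stood at 4.32, 5.503 and 5.79 CPM in 3D cells, at 16.8, 16.4 and 17.6 CPM in vehicle and at 8.37, 7.99 and 8.90 CPM in DOX tet-MYCshRNA spheres. The DOX-treated tet-MUC1shRNA libraries thus held the only values over 20 CPM, and the log2 fold change on MUC1 silencing was 2.82 ± 0.06 (adjusted p = 7.4e-19). SCNN1A went from 2.43, 3.06 and 3.66 CPM to 30.4, 29.5 and 27.1 CPM, a log2 fold change of 3.26 ± 0.11 (adjusted p = 6.4e-16). That rise took it above the 14.1, 14.6 and 13.5 CPM of 3D cells. On MYC silencing its log2 change was 1.36, short of the fold threshold.

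ENSG00000284377, a transcript on the X chromosome with no symbol in the annotation, rose with DOX in both tet lines. It stood at 17.8, 16.2 and 19.2 CPM in vehicle and 75.3, 78.7 and 78.9 CPM in DOX tet-MUC1shRNA spheres (2.15 ± 0.06, adjusted p = 1.2e-16). In tet-MYCshRNA spheres it stood at 4.26, 3.97 and 3.79 CPM with vehicle and 12.2, 16.2 and 15.4 CPM with DOX (1.84 ± 0.13, adjusted p = 1.4e-06). FABP4, a fatty acid carrier best known from adipocytes and macrophages, did the same. Its values were 29.0, 25.9 and 27.7 against 90.6, 104 and 88.5 CPM in the tet-MUC1shRNA line (1.80 ± 0.06, adjusted p = 1.4e-15). They were 7.25, 6.74 and 7.85 against 77.8, 61.5 and 71.0 CPM in the tet-MYCshRNA line (3.25 ± 0.11, adjusted p = 1.2e-08). With KRT5, these were the only 3 of the 62 genes called in the same direction with DOX in both tet lines, against 1.38% of the 18198 genes tested in both. A change shared by both lines cannot be told apart from an effect of DOX or DMSO.

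Of the other genes that rose on MUC1 silencing, NOS2, the inducible nitric oxide synthase, went from 22.8, 23.1 and 21.1 CPM to 66.0, 69.4 and 65.1 CPM (1.61 ± 0.06). XDH, which makes uric acid from xanthine, went from 12.1, 11.8 and 12.9 CPM to 34.8, 36.1 and 37.0 CPM (1.58 ± 0.07). RIPOR2, an inhibitor of the small GTPase RhoA, went from 17.6, 18.4 and 19.0 CPM to 60.2, 60.4 and 63.0 CPM (1.76 ± 0.06). In each of these genes the vehicle and DOX libraries were far from overlapping. DMKN (2.21), SRSF8 (1.61) and LINC01363 (1.501) were also called higher, as were AREG and TNFRSF10A described further on, with adjusted p-values at or under 2.2e-08. The call of LINC01363, at the fold threshold, was lost without the low-count filter, with all 21 libraries in 1 fit, and without vehicle library 2 or 3 or DOX library 3. CHST1 (-1.01), FOXL1 (-0.94), MILR1 (-1.26) and PECAM1 (-0.43) had lower values on MUC1 silencing that stayed inside the fold threshold.

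LBH, a cofactor of transcription that acts downstream of WNT in mammary cells, and CNR1, the cannabinoid receptor of the nervous system, fell on MUC1 silencing. LBH went from 51.3, 43.2 and 42.5 CPM to 8.83, 9.86 and 8.03 CPM (-2.33 ± 0.08, adjusted p = 2.9e-15). CNR1 went from 24.0, 23.1 and 26.3 CPM to 5.09, 5.08 and 4.56 CPM (-2.29 ± 0.09, adjusted p = 6.3e-15). FOXC2, a forkhead factor of mesenchymal cells, went from 15.8, 16.8 and 15.3 CPM to 3.61, 3.01 and 3.49 CPM (-2.23 ± 0.10, adjusted p = 2.0e-13). In 3D cells FOXC2 stood between these, at 6.27, 6.42 and 6.97 CPM.

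MYC silencing raised 16 of the 62 genes and lowered 4, against 7.06% of all genes raised and 3.39% lowered. Beside KRT5 and FABP4, the genes that rose were led by CNR1, LBH, the transcription factor TFCP2L1, the neuronal adhesion molecule NRCAM and the metalloproteinase ADAMTS7. Those that fell were TNFRSF10A, its divergent lncRNA TNFRSF10A-DT, and the lncRNAs CASC19 and SCAT8. The median log2 fold change was 0.23 over the 62 genes and 0.01 over all 19951 genes tested.

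CNR1 and LBH thus moved in the opposite direction to that seen on MUC1 silencing. CNR1 rose from 1.76, 1.77 and 1.94 CPM to 32.1, 26.1 and 28.6 CPM (3.97 ± 0.12, adjusted p = 7.0e-09), where its values overlapped those of 3D cells at 25.4, 28.6 and 25.1 CPM. LBH rose from 6.63, 6.64 and 6.61 CPM to 43.3, 51.2 and 56.0 CPM (2.90 ± 0.11, adjusted p = 2.0e-08). In both genes the vehicle-treated tet-MYCshRNA spheres were the lowest of the 6 sphere groups. GO-203 left CNR1 at 69.7, 61.7 and 75.7 CPM, a log2 change of 1.42 that stayed inside the fold threshold.

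TNFRSF10A encodes a receptor for the death ligand TRAIL. It went from 22, 20.02 and 22.6 CPM to 66.8, 68.3 and 64.4 CPM on MUC1 silencing (1.65 ± 0.06, adjusted p = 2.1e-15). On MYC silencing it went from 49.1, 47.2 and 48.9 CPM to 10.0, 8.67 and 9.70 CPM (-2.37 ± 0.09, adjusted p = 2.2e-08). Untreated 3D cells held 20.7, 19.5 and 21.9 CPM, between the extremes. With CNR1 and LBH it was 1 of 3 among the 62 called in opposite directions in the tet lines, against 0.747% of the genes tested in both.

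ADAMTS7, a secreted metalloproteinase, rose on MYC silencing from 10.0, 9.39 and 10.4 CPM to 42.8, 70.3 and 64.6 CPM (2.56 ± 0.16, adjusted p = 6.4e-07), near the 72.5, 65.6 and 60.3 CPM of 3D cells. ADAMTS7P4, an annotated pseudogene of it, rose from 1.02, 0.945 and 0.881 CPM to 5.26, 3.18 and 3.95 CPM (2.09 ± 0.22). Reads of near-identical copies can be split between them, so the pseudogene's own level is uncertain, as is that of GLULP4, a processed copy of GLUL (2.01 ± 0.20). ZBTB16, a zinc finger repressor that glucocorticoids induce in many cell types, rose from 25.0, 25.9 and 26.5 CPM to 109, 122 and 124 CPM (2.18 ± 0.07, adjusted p = 1.1e-08). TFCP2L1, a pluripotency and kidney-duct transcription factor, rose from 1.73, 1.75 and 1.04 CPM to 10.4, 10.9 and 10.6 CPM (2.78 ± 0.18), and NRCAM from 1.01, 0.955 and 0.571 CPM to 6.83, 4.68 and 4.87 CPM (2.65 ± 0.24).

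The lncRNA CASC19 fell on MYC silencing from 6.69, 7.57 and 7.57 CPM to 2.14, 1.81 and 1.98 CPM (-1.90 ± 0.14), and SCAT8 from 8.25, 8.07 and 9.57 CPM to 3.00, 2.34 and 2.20 CPM (-1.80 ± 0.16). The remaining genes called higher were DDC (1.92), METTL7B (1.62), ENSG00000279415 (1.81), LINC00598 (1.55) and ENSG00000287458 (1.55), the last with 5.00, 2.93 and 2.73 CPM in its DOX libraries. Adjusted p-values of the 20 called genes were at or under 0.00092. The calls of METTL7B, LINC00598 and ENSG00000287458 were each lost on leaving out 1 library, the third vehicle library for METTL7B, the second vehicle or first DOX library for LINC00598, and the first vehicle or first DOX library for ENSG00000287458.

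**Figure D3:**
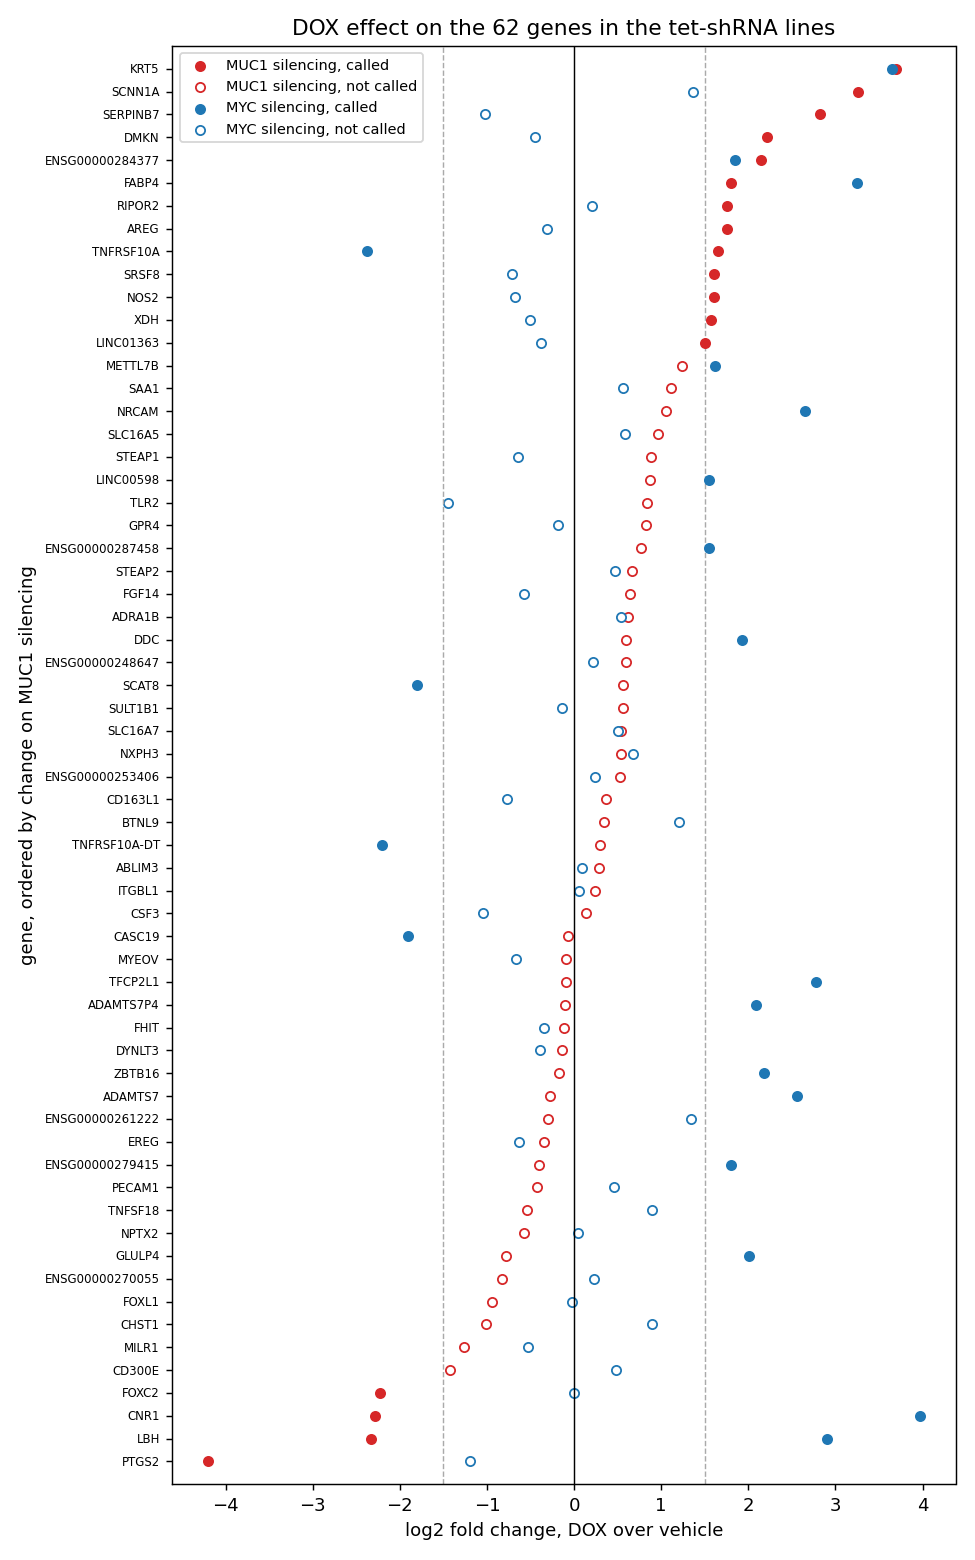
Log2 fold change, DOX over vehicle, of the 62 switched-on genes on MUC1 silencing (red) and MYC silencing (blue), filled where called and open where not, with dashed lines at the fold threshold of 1.5. CNR1, LBH and TNFRSF10A have filled points on opposite sides of 0, while KRT5, FABP4 and ENSG00000284377 have both on the right.

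The difference between the DOX effects in the tet-MUC1shRNA and tet-MYCshRNA lines was tested as an interaction term over the 12 libraries. It was called for 29 of the 62 genes, 15 with the larger value on MUC1 silencing and 14 with the larger value on MYC silencing, against 7.59% and 8.56% of all 21585 genes tested. The median absolute difference was 1.39 on the log2 scale over the 62 genes and 0.68 over all genes. The lines also differed in passage and hairpin, which cannot be told apart from the silenced gene.

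GO-203 called 3 of the 62 genes, 1 higher and 2 lower, against 0.498% and 0.26% of all 18488 genes. KRT5 was the one that rose. NOS2 fell from 25.8, 24.9 and 23.7 CPM in 3D cells to 7.87, 8.32 and 9.10 CPM with GO-203 (-1.52 ± 0.09, adjusted p = 4.1e-11), and MYEOV, a gene first found in myeloma, from 3.34, 2.30 and 3.07 CPM to 0.701, 0.761 and 1.48 CPM (-1.504 ± 0.26, adjusted p = 0.00018). Both lie at the fold threshold, and leaving out the first 3D library or the first GO-203 library left KRT5 as the only gene called. MYEOV was also lost without 3D library 3 or GO-203 library 2 and with library size as the only scaling. CSF3, the granulocyte colony-stimulating factor, stood at 17.4, 16.8 and 16.5 CPM in 3D cells and 7.03, 6.999 and 8.76 CPM with GO-203, a log2 change of -1.12. The median log2 change was -0.05 over the 62 genes and 0.02 over all genes.

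Vehicle-treated tet-MUC1shRNA spheres differed from untreated 3D cells of the same passage in 13 switched-on genes, 7 higher and 6 lower, against 4.52% and 4.05% of all 18409 genes. This comparison shares its 3D libraries with the GO-203 comparison and its vehicle libraries with the MUC1 comparison, and transduction, puromycin selection and DMSO differ together in it. PTGS2 (3.02 ± 0.11), CD300E (2.61 ± 0.13), EREG (2.46 ± 0.09), NRCAM (2.14 ± 0.20), NXPH3 (1.95 ± 0.18), DYNLT3 (1.78 ± 0.19) and ENSG00000284377 (1.51 ± 0.09) were higher in the vehicle-treated line. KRT5 (-4.35 ± 0.16), AREG (-3.50 ± 0.10), ADAMTS7 (-2.64 ± 0.09), TNFSF18 (-2.35 ± 0.10), SCNN1A (-2.20 ± 0.13) and RIPOR2 (-1.98 ± 0.06) were lower, all with adjusted p-values at or under 7.4e-07. The call of ENSG00000284377, just past the fold threshold, was lost with DESeq2, with both other scalings and other filters, and without 3D library 1 or 2 or vehicle library 3. CD300E, an activating receptor of myeloid cells, stood at 2.99, 2.13 and 2.43 CPM in 3D cells against 17.1, 14.9 and 14.4 CPM in the vehicle-treated line.

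Vehicle-treated spheres of the tet-MYCshRNA line at passage 8 differed from those of the tet-MUC1shRNA line at passage 6 in 20 switched-on genes, 7 higher and 13 lower, against 5.2% and 5.39% of all 19140 genes. STEAP1 (2.28 ± 0.08), KRT5 (2.13 ± 0.24), TLR2 (1.87 ± 0.15), SLC16A7 (1.87 ± 0.12), STEAP2 (1.86 ± 0.06), NOS2 (1.76 ± 0.08) and SRSF8 (1.55 ± 0.15) were higher in the tet-MYCshRNA line. The largest falls were in CNR1 (-3.73 ± 0.10), PTGS2 (-3.29 ± 0.12) and NRCAM (-3.25 ± 0.17), followed by LBH (-2.77), NXPH3 (-2.65), ENSG00000284377 (-2.13), LINC00598 (-1.93), GPR4 (-1.92), FABP4 (-1.91), TFCP2L1 (-1.90), CD300E (-1.81), ZBTB16 (-1.70) and EREG (-1.68). Adjusted p-values of these 20 were at or under 1.7e-06, and the call of SRSF8 was lost without the third tet-MUC1shRNA vehicle library. The vehicle libraries of the tet-MYCshRNA line also serve as control of MYC silencing, and CNR1, NRCAM, LBH, ENSG00000284377, LINC00598, FABP4, TFCP2L1 and ZBTB16, low in them here, are among the genes called higher there. GPR4, a proton-sensing receptor, stood at 11.2, 9.20 and 9.81 CPM in the vehicle and 16.01, 19.2 and 17.1 CPM in the DOX tet-MUC1shRNA spheres, and at 2.81, 2.67 and 2.37 CPM in vehicle tet-MYCshRNA spheres.

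Over MUC1 silencing, MYC silencing and GO-203, 32 of the 62 genes were called at least once, against 13.7% of the 17277 genes tested in all 3 comparisons. In none of the 5 pairs of sphere groups were 20 genes called, against 80.5% of the 17018 genes tested in all 5. Among these 20 were ABLIM3, CSF3, CHST1, FOXL1, PECAM1, SAA1 and SULT1B1. SULT1B1, a sulfotransferase of thyroid hormone and phenols, spanned 38.1 to 142 CPM over the 18 sphere libraries. CHST1, a sulfotransferase of keratan sulfate chains, spanned 10.7 to 73.7 CPM with its lowest group mean in DOX-treated tet-MUC1shRNA spheres and its highest in DOX-treated tet-MYCshRNA spheres. CSF3 spanned 6.999 to 44.1 CPM. ADRA1B, an adrenergic receptor, spanned 4.20 to 22.6 CPM and BTNL9, of the butyrophilin family, 3.19 to 20.99 CPM.

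Many switched-on genes lay close to one another. Of the 62, 20 genes (32.3%) had another switched-on gene within 1 Mb on the same chromosome, measured between the lower coordinates of the genes, while 5.08% of 14375 other expressed genes had a switched-on gene that near. Measured between transcription starts, which was chosen after the data were seen, 18 genes had one (29.0% against 5.22%). Between lower coordinates the shares within 500 kb were 29.0% and 2.55%, and within 250 kb 24.2% and 1.34%. Counting neighbours on the same strand only, 12 genes remained (19.4% against 2.71%). Some of the 20 genes overlap one another and may share reads. These are ABLIM3 with ENSG00000248647 and ENSG00000253406, TNFRSF10A with TNFRSF10A-DT, and ITGBL1 with FGF14. The shares were not computed without them. Positions are on GRCh38 with GENCODE release 44.

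EREG (chr4:74365145-74388749) and AREG (chr4:74445136-74455005) both encode ligands of the EGF receptor family and start 80.0 kb apart on the plus strand. They did not move together among the spheres. EREG stood at 13.4, 14.6 and 16.5 CPM in 3D cells, where AREG stood at 24.9, 22.9 and 25.97 CPM. In vehicle-treated tet-MUC1shRNA spheres EREG stood at 73.0, 90.1 and 83.2 CPM and AREG at 2.22, 2.31 and 2.03 CPM. EREG was thus highest where AREG was lowest. On MUC1 silencing AREG rose to 7.13, 7.53 and 6.99 CPM (1.75 ± 0.13, adjusted p = 3.7e-10), while EREG stood at 66.9, 62.4 and 62.5 CPM (log2 change -0.34). On MYC silencing the log2 changes were -0.31 for AREG and -0.64 for EREG, neither called.

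STEAP1 (chr7:90154456-90164829) and STEAP2 (chr7:90167590-90238137), of the STEAP family of membrane proteins, start 13.1 kb apart on the same strand. STEAP1 stood at 6.64, 7.59 and 8.18 CPM in 3D cells and at 65.7, 68.1 and 72.7 CPM in vehicle tet-MYCshRNA spheres. STEAP2 stood at 18.7, 19.9 and 20.5 CPM and at 73.8, 76.7 and 84.9 CPM in the same groups. For both genes every library of the tet-MYCshRNA line lay above every passage 6 library, but DOX there left STEAP1 at 46.7, 42.1 and 45.7 CPM and STEAP2 at 122, 101 and 107 CPM, log2 changes of -0.64 and 0.47 that were not called.

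The forkhead genes FOXC2 (chr16:86566829-86569728) and FOXL1 (chr16:86576368-86583478) start 9.5 kb apart. FOXL1, a factor of the gut mesenchyme, was higher in 3D cells, at 36.9, 35.8 and 40.03 CPM, than in vehicle tet-MUC1shRNA spheres, at 25.5, 25.1 and 27.1 CPM, whereas FOXC2 had its lower values in 3D cells. PECAM1 (chr17:64319415-64413776), an adhesion molecule of endothelium and blood cells, and MILR1 (chr17:64449037-64468643), an immunoglobulin-like receptor of mast cells, start 35.26 kb apart on opposite strands. PECAM1 spanned 2.59 to 10.05 CPM in spheres and MILR1 2.03 to 8.72 CPM. The endothelial markers VWF and CDH5, in contrast, had group means of at most 0.0833 CPM in all 7 groups.

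CD300E (chr17:74609885-74623738) lies with the lncRNA ENSG00000261222 (chr17:74599820-74607246) and the monocarboxylate transporter SLC16A5, whose transcription start is 464 kb from that of CD300E. A second member of that transporter family, SLC16A7 on chromosome 12, is also among the switched-on genes. It stood at 1.495, 1.87 and 2.04 CPM in 3D cells. In tet-MYCshRNA spheres it stood at 8.62, 8.83 and 9.32 CPM with vehicle and 13.8, 11.3 and 13.4 CPM with DOX. Its log2 change on MYC silencing was 0.50 and was not called. SCNN1A and the scavenger receptor CD163L1 (chr12:7346685-7479897) have lower coordinates 999.8 kb apart, at the edge of the distance used, and transcription starts 1102 kb apart. CD163, the macrophage scavenger receptor next to CD163L1, averaged 0.131 CPM in 2D cells and 41.8 CPM over the sphere libraries but had too many 2D counts to be chosen. CD163L1 spanned 4.44 to 20.7 CPM in spheres.

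Several neighbours overlap each other, and without a stated strand setting of the counting their reads cannot be told apart with certainty. ITGBL1 (chr13:101452593-101720856) and FGF14 (chr13:101710804-102402457) run toward each other and share 4356 exon bases, 70.5% of those of ITGBL1 and 29.7% of those of FGF14. FGF14, an intracellular relative of the fibroblast growth factors, stood at 1.12 to 3.66 CPM in spheres and ITGBL1 at 3.23 to 10.01 CPM. The lncRNAs ENSG00000253406 and ENSG00000248647 lie antisense to ABLIM3, share 88 and 0 exon bases with it and gave 0.974% to 2.27% and 0.135% to 0.403% of its counts. Both also overlap AFAP1L1 on the opposite strand, with 0 shared exon bases. AFAP1L1 averaged 0.165 CPM in 2D cells and 134 CPM over the spheres. ENSG00000287458 lies at FKBP5, one of the genes set aside, and gave 0.051% to 0.15% of its counts. ENSG00000279415 overlaps XYLT1 on the same strand, with 0 shared exon bases. XYLT1 averaged 0.631 CPM in 2D cells and 94.1 CPM over the spheres, and whether reads of ENSG00000279415 belong to XYLT1 was not tested. TNFRSF10A-DT starts 0.63 kb from TNFRSF10A on the opposite strand. It followed the receptor down on MYC silencing, from 3.63, 4.11 and 2.76 CPM to 0.847, 0.723 and 0.743 CPM (-2.21 ± 0.21), but on MUC1 silencing stood at 3.71, 3.03 and 3.21 against 4.78, 3.70 and 3.47 CPM, a log2 change of 0.29 (adjusted p = 0.12 by the same test).

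Beyond the switched-on genes themselves, 985 other genes tested in 3D against 2D cells had a lower coordinate within 1 Mb of that of one. Of them 98 were higher (9.95%) and 58 lower (5.89%), against 6.9% and 9.29% of all genes. DYNLT3, a dynein light chain on the X chromosome, had 6 tested neighbours, of which 3 were higher. Near the switched-off genes, 12 of 180 neighbours were higher (6.67%) and 26 lower (14.4%).

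Of the switched-off genes, OR2T8 had by far the most counts in 2D cells. In spheres the 16 genes together gave 1 to 17 counts per library. OR2T8, an olfactory receptor, held 7389, 6774 and 6394 counts in 2D cells and no count in any of the 18 sphere libraries (0 in the 3 libraries of 3D cells and an empty cell in the other 15), at least 2336-fold lower in 3D cells. HS6ST2, which adds sulfate to heparan sulfate chains, held 328, 371 and 402 counts in 2D cells and likewise no count in spheres (0 in the same 3 libraries, empty in 15), at least 123-fold lower. These 2 were the only ones with no count in any sphere library. In 2D cells OR2T8 reached 130.3 ± 29.4 CPM (SD, n = 3) and HS6ST2 6.86 ± 0.41 CPM.

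**Figure D4:**
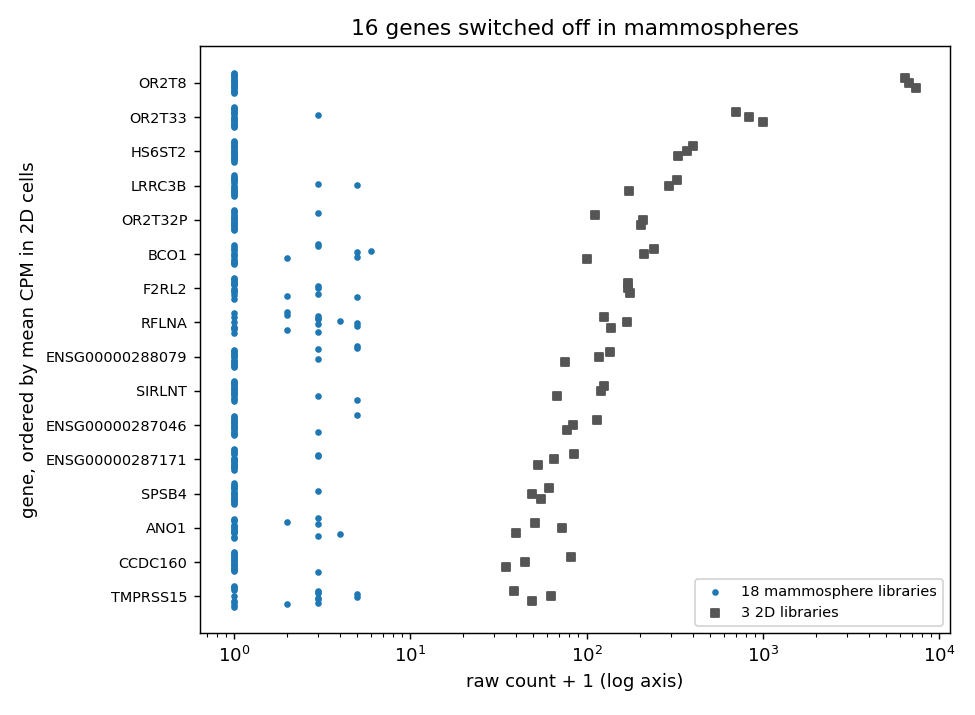
Raw counts plus 1, on a log axis, of the 16 switched-off genes in the 3 libraries of 2D cells (grey squares) and the 18 sphere libraries (blue points), ordered by mean CPM in 2D cells. OR2T8 stands alone at 6394 to 7389 counts, and no sphere library exceeds 5 counts for any gene, which is how the genes were chosen.

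OR2T8 (chr1:247920252-247923152), the pseudogene OR2T32P (chr1:248083634-248084596) and OR2T33 (chr1:248269917-248277976) lie within 1 cluster of olfactory receptor genes near the end of chromosome 1. OR2T33 held 996, 829 and 708 counts in 2D cells and 2 in 1 sphere library. OR2T32P held 204, 209 and 110 counts in 2D cells and 2 in 1 sphere library. These 3 are 18.8% of the 16 switched-off genes, and 0.867% of 14421 other expressed genes lay within 1 Mb of a switched-off gene. Between and around them, TRIM58, a ubiquitin ligase of red cell precursors, held 728, 615 and 632 counts in 2D cells and at most 16 in spheres, so that it missed the 5-count limit. OR2T12 held 27, 39 and 20 counts and OR2W3 14, 17 and 13 counts in 2D cells, with at most 2 in spheres. Other receptor genes of the cluster held few counts in 2D cells. OR2AJ1 held 3, 9 and 8 counts there and 0 in spheres, and OR2L2 held 6, 4 and 8 and at most 8 in spheres. OR14K1, OR2M3 and OR2L13 held at most 2 counts in any 2D library, so levels along the run were uneven. OR2T genes are close copies, and how reads that fit several of them were counted is not given in the sources used here.

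**Figure D5:**
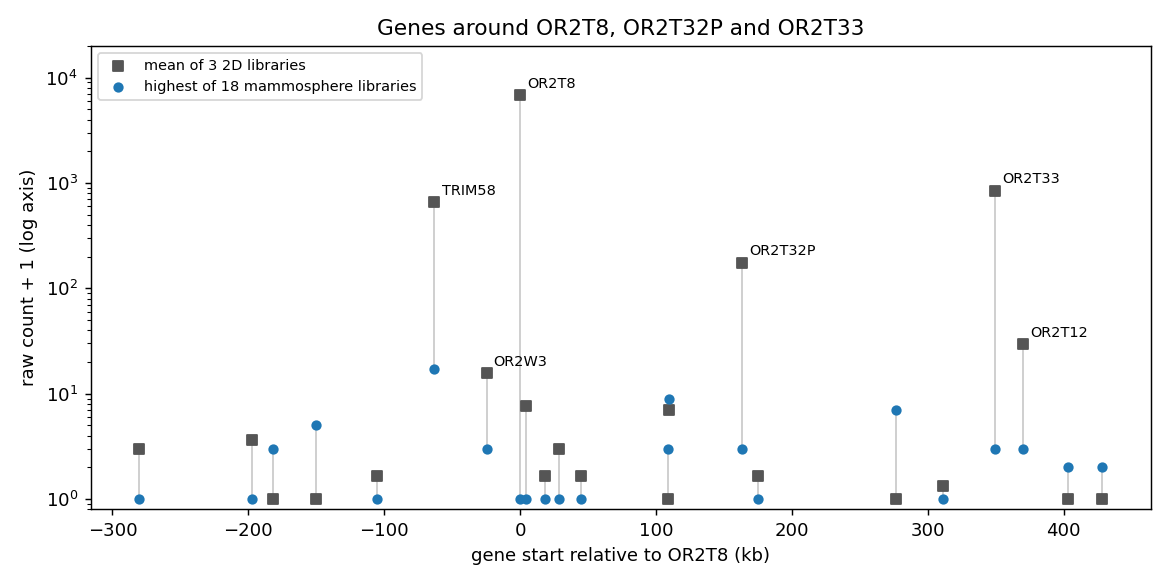
Raw count plus 1, on a log axis, of genes around OR2T8 against distance of the gene start from OR2T8 in kb (grey squares, mean of the 3 libraries of 2D cells; blue points, highest of the 18 sphere libraries). OR2T8, TRIM58, OR2T33, OR2T32P, OR2T12 and OR2W3 stand well above their sphere points, and the genes between them lie near the bottom in both.

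F2RL2 (chr5:76615482-76623413), the protease-activated receptor PAR3 that binds thrombin, held 176, 170 and 171 counts in 2D cells and 0 to 4 in spheres. IQGAP2, a scaffold protein encoded over it on the opposite strand, averaged 249.2 CPM in 2D cells and 0.206 CPM over the spheres, with 197 counts left in the 18 libraries. The lncRNA ENSG00000288079 (chr3:113259786-113266824) held 74, 117 and 134 counts in 2D cells and at most 4 in spheres. It lies antisense to BOC, a hedgehog co-receptor, which averaged 27.8 CPM in 2D cells and 0.162 CPM in spheres. In both pairs the more abundant partner fell with the switched-off gene, and F2RL2 and ENSG00000288079 share 2.55% and 6.07% of their exon bases with it.

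LRRC3B, a leucine-rich repeat membrane protein, held 173, 294 and 323 counts in 2D cells, BCO1, which cleaves beta-carotene to retinal, 100, 212 and 239 counts, and RFLNA, a filamin-interacting protein, 136, 169 and 124 counts. SIRLNT held 67, 120 and 125 counts, ENSG00000287046 held 76, 83 and 114, and ENSG00000287171 held 52, 64 and 84. SPSB4, an adaptor of ubiquitin ligases, held 54, 48 and 60 counts, ANO1, a calcium-activated chloride channel, 39, 72 and 50, TMPRSS15, the intestinal enteropeptidase, 48, 62 and 38, and CCDC160 34, 44 and 81. Of the 18 sphere libraries, 9 had no TMPRSS15 count, 12 no BCO1 count and 13 no count of F2RL2 or ANO1.

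The limits split genes that hardly differ. DYNLT3, MYEOV and SAA1 entered with exactly 30 counts in their lowest sphere library, and LINC02188 with 29 and ENSG00000286840 with 28 stayed out. BTNL9 and FHIT entered with 5 counts in their highest 2D library, and LINC02980 and RNF125 with 6 stayed out. Among switched-off genes CCDC160 entered with 34 counts in its lowest 2D library, KLF17 and ENSG00000286593 with 28 stayed out, and CCDC3 and IL26, with 940 to 1629 and 271 to 402 counts in 2D cells, stayed out for 6 counts in 1 sphere library.

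Lists of genes known to answer to steroid, oxygen and serum were set beside the switched-on genes. ZBTB16 and SAA1, an acute-phase protein, belong to a list of 16 glucocorticoid-induced genes. The list counts that follow leave out switched-on genes and genes under 0.5 CPM in either group, a limit chosen after the data were seen. Of the glucocorticoid list, 6 of 9 genes were called higher in 3D than in 2D cells and 2 lower, where 4.18% and 5.35% of all genes at that level were. TSC22D3 averaged 1.95 CPM in 2D and 247 CPM in 3D cells, PER1 12.6 and 178 CPM, and KLF9 14.8 and 394 CPM, while ADAMTS1 averaged 48.6 and 7.68 CPM. SAA1 stood at 1.18, 1.23 and 2.09 CPM in 3D cells, close to the 30-count limit, and its near-identical copy SAA2 averaged 0.0475 CPM. Of 10 hypoxia targets, none of which is a switched-on gene, 7 of 9 were called higher in 3D than in 2D cells, and 5 of 7 were called lower on MUC1 silencing, where 2.27% of all genes were. On MYC silencing 1 of 10 was called lower and with GO-203 0 of 10, where 2.07% and 0.109% of all genes were. NDRG1 averaged 517 CPM with vehicle and 27.7 CPM with DOX in that line. Of 13 serum and matrix genes, 7 of 12 were called lower in 3D cells. Whether these programmes bear on the switched-on genes was not tested.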

How the data were processed

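Total RNA of triplicate BT-549 cultures was made into stranded TruSeq mRNA libraries and sequenced as read pairs. The authors deposited raw counts per gene for 21 libraries, made by alignment to GRCh38 with STAR (2.7.3a in the submitters' processing notes) and featureCounts. The strand setting, the handling of reads that fit several places and the annotation release are not given in the sources used here. Gene IDs were matched to GENCODE release 44, 42252 of 42339 by ID and 36669 with the same version, for symbols, types, positions and exon lengths. Levels are CPM (counts per 1000000) after TMM scaling.

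The 5 pairs of sphere groups and the line by DOX interaction were fitted on the raw counts with edgeR 4.0.16 in R 4.3.3 (filterByExpr, TMM, glmQLFit, glmQLFTest, Benjamini-Hochberg over all genes tested), and the step was tested on simulated data. Alternatives were DESeq2 1.42.0, other scalings and filters, 1 fit over all libraries, other thresholds and limits, the replicate block, and leaving out each library. Genes named are the 12 highest per kb in each set, the 3 largest called changes each way per comparison, members with a neighbour, members of fixed lists and those nearest the limits. Others were named after their values were seen. The members and lists were chosen with earlier results of these data known. Library totals ran from 38026597 to 99751717 counts, and counts at or under 5 carry large counting error.

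Same-numbered libraries of compared groups deviated together by a mean correlation of 0.03 for MUC1, -0.18 for MYC and 0.11 for GO-203, with no comparison over 0.1 in each of its 3 pairs, so the numbers were not taken as pairs.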

Additional observations from a re-analysis of the deposited data

Results flagged for a closer look

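For 29 switched-on genes the DOX effect differed between the tet-MUC1shRNA and tet-MYCshRNA lines in the interaction test of edgeR (adjusted p at or under 0.00022, called at an absolute difference over 1.5). The values are the log2 change on MUC1 silencing minus that on MYC silencing, over 12 libraries. The difference was positive for TNFRSF10A (4.01), SERPINB7 (3.83), DMKN (2.64), TNFRSF10A-DT (2.49), SCAT8 (2.36), SRSF8 (2.31), NOS2 (2.27), TLR2 (2.26), XDH (2.07), AREG (2.05), SCNN1A (1.88), LINC01363 (1.87), CASC19 (1.82), RIPOR2 (1.54) and STEAP1 (1.51). It was negative for CNR1 (-6.27), LBH (-5.24), PTGS2 (-3.02), TFCP2L1 (-2.89), ADAMTS7 (-2.85), GLULP4 (-2.81), ZBTB16 (-2.36), FOXC2 (-2.24), ENSG00000279415 (-2.22), ADAMTS7P4 (-2.21), CD300E (-1.92), CHST1 (-1.92), ENSG00000261222 (-1.65) and NRCAM (-1.60).

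CNR1 and LBH, the largest differences, combine a fall from 24.5 and 45.7 CPM (group means) in one line with a rise from 1.82 and 6.63 CPM in the other. SERPINB7 had its rise on MUC1 silencing and a log2 change of -1.03 on MYC silencing that was not called, and NOS2 likewise -0.68. The lines differ in passage (6 and 8) and hairpin as well as in the silenced gene, and the part of each was not tested.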

How the results depend on the processing

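The number of switched-on genes was 62, and 79 or 46 with a sphere minimum of 20 or 50 counts, 44 or 88 with a 2D maximum of 3 or 10 counts, and 60 with limits on CPM. The number of switched-off genes was 16, and 8 or 50 with a sphere maximum of 3 or 10 counts, 3 where genes with an empty cell were left out, and 19 with limits on CPM. Leaving out 1 library at a time gave 62 to 74 switched-on and 16 to 22 switched-off genes.

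With a fold change over 1.5 in place of a log2 fold change over 1.5, the genes called among the 62 were 37 on MUC1 silencing, 36 on MYC silencing, 18 with GO-203, 39 in vehicle tet-MUC1shRNA against 3D cells and 47 between the vehicle-treated lines, against 32.2%, 37.7%, 5.63%, 32.6% and 39.9% of all genes. Leaving out 1 library gave 16 to 17, 19 to 20, 1 to 4, 12 to 14 and 20 to 24 calls in these comparisons and 28 to 31 in the interaction. The GO-203 count was 1 without the first 3D library or without the first GO-203 library, with NOS2 and MYEOV lost, and 1 higher with 1 lower, in place of 2 lower, with library size as the only scaling. Calls kept under every alternative at the log2 threshold numbered 16 of 17, 17 of 20, 1 of 3, 12 of 13, 19 of 20 and 25 of 29. Those lost under some were LINC01363 on MUC1 silencing, ENSG00000287458, LINC00598 and METTL7B on MYC silencing, ENSG00000284377 in vehicle tet-MUC1shRNA against 3D cells, SRSF8 between lines, and ENSG00000261222, NRCAM, RIPOR2 and STEAP1 in the interaction, and the cause was not tested. Library size as the only scaling moved the median of all genes by 0.20 in the interaction. No named change reversed under the alternatives run. Fits with the replicate block called 17, 20, 3, 13, 21 and 29 genes. With neighbours on the same strand only, 12 switched-on genes had one in place of 20. With distances between transcription starts, an alternative added after the data were seen, 18 had one, and the 3 switched-off genes with a neighbour stayed at 3.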
